A study of Mus musculus with 50 samples.

Results

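The paraventricular nucleus (PVN) of unstressed DBA/2J mice was compared with that of unstressed C57BL/6J mice on 10 of the 50 two-colour cDNA arrays of the study. These were the 10 arrays that the labels give to the direct comparison of the strains, replicates 1 to 10, and every clone on them that was not a control was taken, 22824 cDNA clones in all. One channel held RNA of an unstressed DBA/2J pool and the other RNA of an unstressed C57BL/6J pool, each made from the PVN tissue of 6 male mice aged 3 to 5 months, which had been housed singly and had not been made to swim. The tissue was punched out of brain sections and its RNA was amplified before labelling. The pool of DBA/2J was in Cy5 on 5 arrays and in Cy3 on the other 5. The remaining 40 arrays compared pools taken 4 h and 8 h after forced swimming with unstressed pools of the same strain, and are used here only for a second look at the strain contrast. All 10 arrays hybridised the same 2 pools, so a standard error or p-value covers labelling and hybridisation error and compares 2 pools of RNA, not 2 strains of mice.

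The PVN is the hypothalamic nucleus whose neurons release corticotropin-releasing hormone, vasopressin, oxytocin and thyrotropin-releasing hormone. It starts the hormonal response to stress, which ends in the release of glucocorticoids from the adrenal gland, and it is held in check by GABA and driven by glutamate. DBA/2J and C57BL/6J are inbred strains that differ at many loci and in emotional behaviour, so a difference between unstressed animals is the state from which each strain enters the stress response.

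Ratios are given as log2 of DBA/2J over C57BL/6J by the labelled dyes, so that a positive value is a clone brighter in the channel labelled DBA/2J. This direction opposes the signs that the study printed for the same comparison. It also opposes, for most called clones, the strain contrast of the stressed pools, whose strains do not depend on the dyes. The direction was therefore not settled by the labels, and with the sign turned every positive value below becomes negative and the reverse. The term called is used for clones that differed by 1.414-fold or more in either direction (0.5 on the log2 scale) and had a Benjamini-Hochberg adjusted p under 0.05 by limma.

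Median spot intensity was 218 to 465 in Cy3 and 135 to 224 in Cy5, and 5934 clones exceeded, on 5 or more arrays, the level below which 95% of the control spots lay. The log2 ratios of an array correlated with the mean of the other 9 at r = 0.142 to 0.228 over all clones and at 0.82 to 0.876 over the called clones, which were chosen for agreement between arrays, as a description. Pairs of arrays with the same dye orientation correlated at 0.10 to 0.18 over all clones and pairs of opposite orientation at -0.01 to 0.07, with a median of 0.04. Arrays 1 to 7 carried one day in their file headers and arrays 8 to 10 another, and the later arrays all had the DBA/2J pool in Cy3, so day and dye orientation were partly tied. Most of the hormones that define the PVN gave weak spots. The clone of vasopressin (Avp) was above the control spots on 3 of 10 arrays, those of oxytocin (Oxt) and corticotropin-releasing hormone (Crh) on 0 of 10, and the clone of thyrotropin-releasing hormone (Trh) on 8 of 10. The regulators Sim1 and Otp were not on the array under these names.

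Between the unstressed pools, 826 of 22824 clones were called by limma (3.62%), of which 366 (1.60%) were higher in the pool labelled DBA/2J and 460 (2.02%) in the pool labelled C57BL/6J. With the sign turned these 2 counts change places. Their median size was 0.74 on the log2 scale, a 1.67-fold difference, and 112 of them reached a log2 size of 1, 44 higher by the DBA/2J label and 68 by the C57BL/6J label. The sign was the same on all 10 arrays for 542 of the called clones, beside 3.38% of all clones, and on at least 9 for 755 of the called, and 818 had the same sign in both dye orientations. Bright clones were called more often, 650 of the 5934 above the control spots (11.0%), 4.68% higher by the DBA/2J label and 6.27% by the C57BL/6J label. In all, 580 called clones could be given a gene symbol and stood for 523 genes, against 10848 clones with a symbol on the array (5.35% of them called).

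The clone of Fam126b had the highest ratio by the labelled dyes. Its log2 ratio was between 2.15 and 3.42 on the 10 arrays with a median of 2.87, so that even the lowest array was far from 0. The mean was 2.88 (standard error 0.15, limma adjusted p = 1.4e-07), while 2 further clones of the same name were not called, so this ratio rests on 1 clone. Mrps18c, a protein of the mitochondrial ribosome, lay between 0.33 and 2.15 with a median of 1.55, and its lowest value came from an array with DBA/2J in Cy3. Ext2, an enzyme that builds heparan sulfate chains, lay between 0.95 and 1.79 with a median of 1.34. Spock3, a proteoglycan of the extracellular matrix, lay between 0.66 and 2.01, and the ribosomal protein Rpl21 between 1.15 and 1.67. Each of these was positive on 10 of 10 arrays, with means of 1.40 for Mrps18c, 1.36 for Ext2, 1.32 for Spock3 and 1.31 for Rpl21.

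At the other end stood Camk2n1, the gene of a small protein that inhibits the kinase CaMKII, which was measured by 3 clones. The first clone lay between -2.96 and -1.66 with a median of -2.46, the second between -2.67 and -1.46 with a median of -1.85, and the third between -2.58 and -0.95 with a median of -1.65. Every array gave a negative value for every clone, and the ranges of the 3 clones overlapped. Med13l, a subunit of the Mediator complex that links transcription factors to RNA polymerase, had a median of -1.84 and a highest value of -1.23. Tmem100, a membrane protein, lay between -2.12 and -1.18. The fatty acid desaturase Fads1 lay between -2.11 and -1.19 and the mitochondrial aspartate and glutamate carrier Slc25a12 between -1.89 and -1.17. None of the 10 arrays gave a value above 0 for any of these genes. Other low ratios were those of Cldn12, a tight junction protein, at -1.53 (standard error 0.13), the ubiquitin ligase Rnf220 at -1.51 (standard error 0.14), the membrane protein Tmem65 at -1.34 (standard error 0.14) and the kinase Aatk at -1.28 (standard error 0.14), each called with the same sign on 10 of 10 arrays. The lowest ratio on the array, -3.14, belonged to a clone with no gene symbol.

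**Figure D1:**
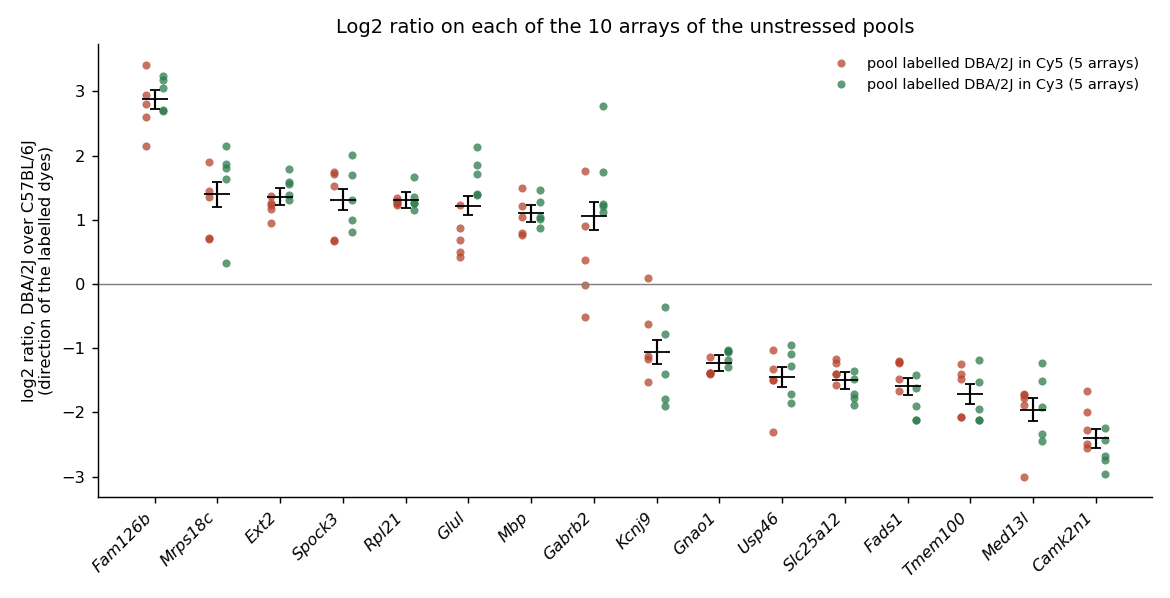
Log2 ratio (DBA/2J over C57BL/6J, labelled dyes) of 16 called genes on each of the 10 arrays of the unstressed pools, 1 clone per gene, red for DBA/2J in Cy5 and green for DBA/2J in Cy3, with the mean and standard error of the limma fit in black. Fam126b lay at 2.15 or above on every array and Camk2n1 at -1.66 or below, while Gabrb2 was negative on 2 arrays and Kcnj9 positive on 1, and turning the sign mirrors the plot about 0.

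The 4 stressed pools, 2 of each strain, came from other groups of animals by the study's design and gave a second measure of the strain contrast. Both channels of those arrays held RNA of 1 strain, so the strain of a pool did not depend on the dye labels. The labels did decide which channel was taken as stressed. Of the 826 called clones, 654 (79.2%) had the opposite sign there and 172 the same sign. Among the 112 called clones of at least 1 on the log2 scale, 98 had the opposite sign. Among the 21998 clones that were not called, 54.2% had the opposite sign. Across the called clones the ratio of the unstressed pools and the contrast of the stressed pools correlated at r = -0.511, as a description over clones that come from the same pools and are not independent. With the channels of the unstressed pools on those 40 arrays in place of the stressed ones, 617 of the 826 (74.7%) had the opposite sign, and with each of the 4 pools left out in turn 590 to 656 did. Both stressed DBA/2J pools lay on one side of both stressed C57BL/6J pools for 389 called clones, beside 32.6% of all clones, and 351 of the 389 had the opposite sign.

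The levels of single genes show this plainly. The Fam126b clone had log2 levels of 7.46 and 7.26 in the stressed DBA/2J pools at 4 h and 8 h and of 10.9 and 10.6 in the stressed C57BL/6J pools. The strongest Camk2n1 clone had 13.4 and 13.1 in DBA/2J against 11.3 and 11.6 in C57BL/6J. Med13l had 12.8 and 12.6 against 10.9 and 10.6, and Tmem100 had 11.1 and 10.8 against 9.72 and 9.79. In none of these genes did the pools of the strains overlap, and in each the sign was opposite to that of the labelled dyes. The opposite sign was not confined to stressed pools. The channels of the unstressed pools on the same arrays gave it for 617 of the 826 called clones. Whether stress changed the direction in these genes was not tested. No clone was called between the stressed strains by limma with 4 pools, 838 had an unadjusted p under 0.05 and the smallest adjusted p was 0.19. In simulated data with 4 pools 0% of clones changed by 2 on the log2 scale were recovered, so this p-value says nothing about a clone, and the stressed pools are used as values alone. No day in the file headers was shared between stressed pools, so pool and day cannot be told apart there.

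**Figure D2:**
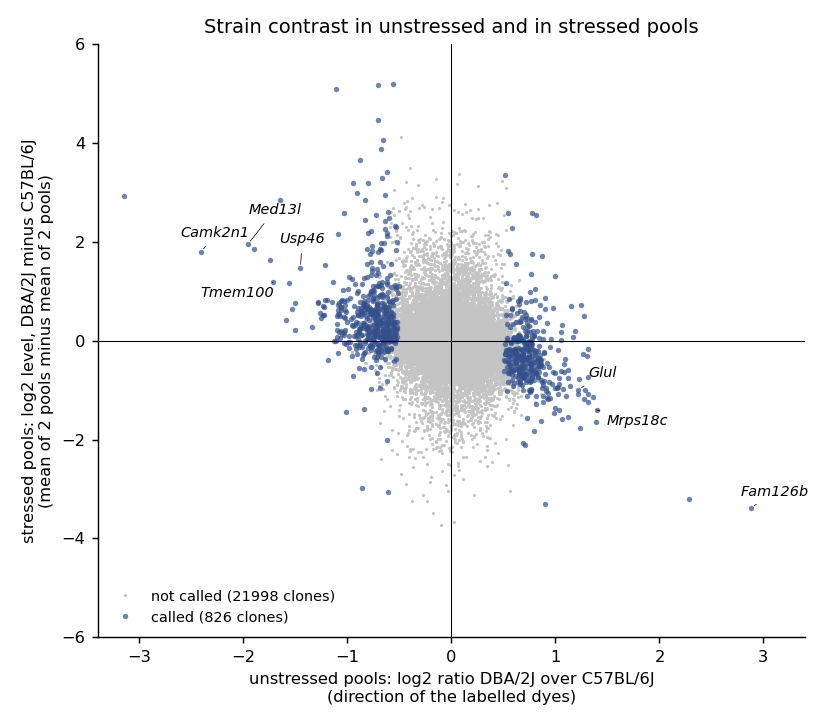
Each point is a clone, with its log2 ratio in the unstressed pools (labelled dyes) on the x axis and its log2 level in stressed DBA/2J minus stressed C57BL/6J pools on the y axis, blue for the 826 called and grey for the 21998 other clones. Called clones lay mostly at the upper left and lower right (654 of 826), where the signs of the contrasts differ.

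**Figure D3:**
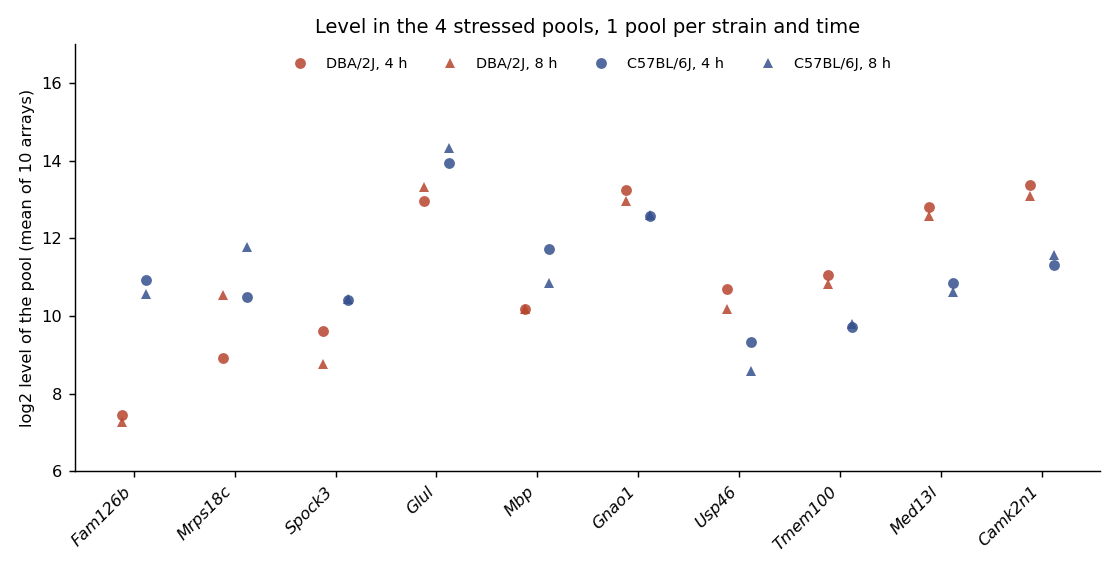
Log2 level in the 4 stressed pools (mean of 10 arrays each) of 10 genes called between the unstressed pools, red for DBA/2J, blue for C57BL/6J, circles for 4 h and triangles for 8 h. Fam126b was lower in both DBA/2J pools and Camk2n1, Med13l, Tmem100 and Usp46 were higher in both, the reverse of the unstressed ratio by the labelled dyes.

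Genes with several clones gave a check within the arrays. At least 2 clones carried the same symbol for 2494 genes, and for 47 of them at least 2 clones were called. All called clones of a gene lay on one side for 44 of the 47, 29 on the side labelled DBA/2J and 15 on the side labelled C57BL/6J, and 3 genes had called clones on both sides. These were the potassium channel Kcnq5 with clones at 0.88, 0.54 and -0.50, the transcription factor Lef1 with clones at 0.74 and -0.69, and Eloc, a subunit of ubiquitin ligase complexes, with clones at 0.54 and -0.65. Clones of 1 gene can represent other transcripts or other sequences, and the files do not give their sequence. Zmynd11, a reader of histone marks, had 3 clones at -0.78, -0.69 and -0.62, all called. The motor protein Kif5b had 4 clones at 0.82, 0.58, 0.58 and 0.55, of which 3 were called. The axon growth protein Basp1 had called clones at 0.80, 0.69 and 0.53 and a dim clone at 0.02, and the middle one of the called clones averaged -0.28 on the arrays with DBA/2J in Cy5 and 1.66 on the others. Eid1, an inhibitor of histone acetyltransferases, stood at -1.10 and -0.96, the glutathione reductase Gsr at -0.99 and -0.91, the merlin gene Nf2 at -1.13 and -0.87, and the exchange factor Arfgef1 at -1.23 and -0.89. Both Gsr clones were dim, above the control spots on 2 of 10 arrays. Positive pairs were the growth arrest transcript Gas5 at 1.03 and 0.98, the phosphoglucomutase-like Pgm2l1 at 1.03 and 0.93, the steroid 5 alpha-reductase Srd5a1 at 1.31 and 0.91, and Rrn3, a factor of ribosomal RNA transcription, at 0.90 and 0.76. Further clones of some of these genes were bright and not called, among them the brightest Glul clone at -0.08, a Pgm2l1 clone at 0.31 and 2 Timp2 clones at 0.41 and 0.50.

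**Figure D4:**
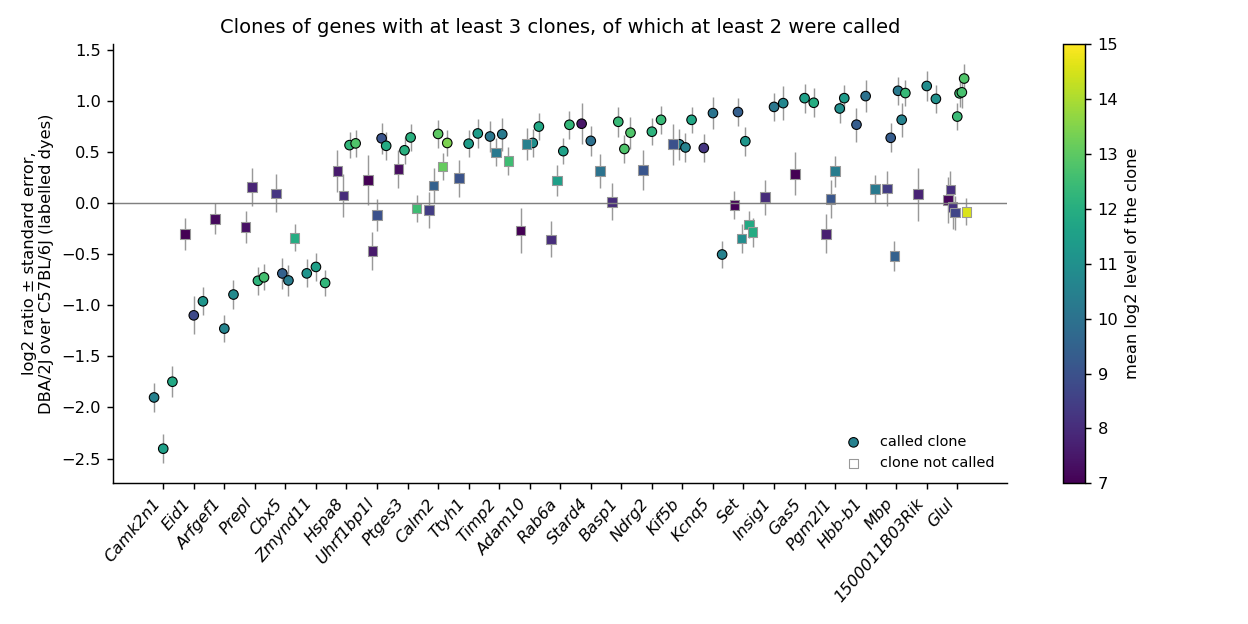
Log2 ratio (DBA/2J over C57BL/6J, labelled dyes) with its standard error for each clone of the genes reported here that had at least 3 clones and at least 2 of them called, circles for called and squares for other clones, coloured by mean log2 level and ordered by level within a gene. All 3 Camk2n1 clones lay at -1.75 or below, 4 of 9 Glul clones at 0.85 or above, and Kcnq5 had called clones on both sides of 0.

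Calcium and calmodulin signalling held the lowest ratio among clones with a symbol, that of a Camk2n1 clone. Of 69 clones of 31 genes for calmodulins and the kinases that they control, 9 were called, 4 higher and 5 lower by the labelled dyes, and the median was -0.01 beside 0.01 for all clones. The 5 lower ones were the 3 clones of Camk2n1, the kinase Camk1g at -0.81 (standard error 0.14, limma adjusted p = 0.0046) and the calcium-regulated transcription factor Nfatc2 at -0.66. Calm2, one of the genes for calmodulin itself, had called clones at 0.68 and 0.59 and others at 0.36, 0.17 and -0.07, and the nuclear kinase Camk4 had clones at 0.74, 0.23 and -0.49, the first of them called. The called clones of Calm2 were higher in DBA/2J in the stressed pools as well, at 0.47 and 0.33, and so kept the sign of the labelled dyes.

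The lists of G proteins, MAP kinases and phosphatases had 1 call on the DBA/2J-labelled side and 14 on the other. Their shares were not far from the 5.35% of all clones with a symbol, beside 3.62% of all clones. In G proteins, their regulators and adenylate cyclases 0 clones were higher and 5 of 80 were lower (6.25%). Gnao1, the main G protein alpha subunit of neurons, had 1 called clone that lay between -1.40 and -1.02 on the 10 arrays with a median of -1.24. Its brightest clone stood at -0.28 and 2 dim clones at 0.60 and 0.32, none of them called. The beta and gamma subunits Gnb2 and Gng10 stood at -0.78 and -0.81. The MAP kinase cascade had 106 clones, 0 of them called higher and 5 lower (4.72%), among them the small GTPase Rras2 at -0.84, the kinases Map2k1 at -0.84 and Map2k4 at -0.72, and the phosphatase Dusp18 at -0.63, of which the Map2k1 clone was above the control spots on no array. For the phosphatases 1 and 2A 1 clone was higher and 4 of 63 were lower (7.94%), with the catalytic subunit Ppp2cb at 0.90 and the regulatory subunits Ppp2r1b, Ppp2r5c and Ppp2r2c at -0.71, -0.64 and -0.57. The list medians were 0.01, -0.06 and -0.07, beside 0.01 for all clones. With 1 array left out 2 to 4 clones were called in the first list, 3 to 4 in the second and 2 to 4 in the third. All 5 called clones of the first list, all 5 of the second and 4 of 5 of the third had the opposite sign in the stressed pools.

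GABA is the main inhibitory transmitter acting on PVN neurons. Of 46 clones of 21 genes for GABA and glycine signalling, 4 were higher and 0 lower (8.70%), and the list median was 0.16. This share and those of the glutamate and potassium channel lists stand beside 5.35% of all clones with a symbol and 3.62% of all clones. Of the 14 GABA clones above the control spots 2 were called (14.3%), beside 11.0% of all such clones. The receptor subunit Gabrb2 lay between -0.52 and 2.78 on the 10 arrays with a median of 1.17 and a mean of 1.06, and 8 arrays were positive. Its clone was above the control spots on 4 of the 10 arrays. The vesicular transporter Slc32a1 stood at 0.70 and was positive on 6 arrays, with a mean of -0.23 on the 5 arrays with DBA/2J in Cy5. The glial GABA transporter Slc6a11 stood at 0.69 and was positive on all 10. With 1 array left out 2 to 4 GABA clones were called. In glutamate signalling and the postsynaptic density 1 of 59 clones was called (1.69%), the NMDA receptor subunit Grin2c at -0.75. Potassium channels had 3 clones on each side among 49 (12.2%), which besides Kcnq5 were Kcnc4 at 0.72, the G protein-gated channel Kcnj9 at -1.06 and the background channel Kcnk9 at -0.61. The second Kcnj9 clone stood at -0.28 and was not called, and neither was above the control spots on any array.

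Peptides and their secretion are the output of the PVN. None of the 24 clones of 20 neuropeptide genes was called by limma, and 1 had an unadjusted p under 0.05, beside 3517 of all 22824 clones. Trh stood at 0.26 (standard error 0.17), Avp at 0.26 (standard error 0.18), Oxt at -0.08 (standard error 0.23) and Crh at -0.14 (standard error 0.27). Somatostatin (Sst) had a clone at -0.54 (standard error 0.16, limma adjusted p = 0.079) and a dim one at -0.01, and the former was called without replicate 3 (-0.64) and when dim clones were left out of the fit. No difference of the size called here was found in these hormones. The spots of Avp, Oxt and Crh were weak, and a missing call is not evidence that the pools were equal. Of 26 clones for secretory granules and peptide processing, 2 were higher and 1 was lower (11.5%). This share and those of the vesicle and developmental lists stand beside 5.35% of all clones with a symbol and 3.62% of all clones. The convertase Pcsk2, which cuts hormone precursors, stood at 0.87 with its other clones at -0.25 and -0.11, the granule protein Resp18 at 0.90, and secretogranin Scg2 at -0.81. Among synaptic vesicle and SNARE proteins 1 was higher and 3 of 93 were lower (4.30%), with Syt11 at 0.66, and among the lower ones the release regulators Cplx1 and Rph3a at -0.80 and -0.65. The developmental regulators of the hypothalamus had Arnt2, the partner of Sim1, at 0.60 and the stem cell factor Sox2 at -0.54, called among 27 clones (7.41%). These calls were not stable, since 0 or 1 of the 27 was called whichever array was left out, and 0 without background subtraction, without the dye term or with the file day as a block.

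Markers of glial cells included genes with several called clones. Of 60 astrocyte clones 10 were higher and 0 lower (16.7%), beside 5.35% of all clones with a symbol and 3.62% of all clones. The 10 stood for 5 genes, and 9 of the 31 astrocyte clones above the control spots were called, beside 11.0% of all such clones. The list median was 0.13. Glul, the glutamine synthetase of astrocytes, was measured by 9 clones, of which 4 were called at 1.22, 1.09, 1.08 and 0.85. The first of them lay between 0.42 and 2.14 on the 10 arrays with a median of 1.31, with a mean of 0.74 on the arrays with DBA/2J in Cy5 and 1.70 on those with DBA/2J in Cy3. The brightest Glul clone stood at -0.08 and 4 dim clones between -0.09 and 0.13, so the clones of this gene fell into 2 sets. The other astrocyte genes were Ndrg2 at 0.82 and 0.70 (the former 0.04 with DBA/2J in Cy5 and 1.59 with DBA/2J in Cy3), the bicarbonate transporter Slc4a4 at 0.86, Slc6a11 at 0.69 and Ttyh1 at 0.68 and 0.58. In the stressed pools Glul, Ndrg2, Slc4a4 and Slc6a11 were lower in DBA/2J and Ttyh1 was higher, 8 of the 10 clones with the opposite sign. Fabp7, the brain lipid-binding protein of radial glia and astrocytes, had called clones at 0.83 and 0.51.

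Of 50 clones for oligodendrocytes and myelin 7 were higher and 3 lower (20%), beside 5.35% of all clones with a symbol. The 7 higher clones stood for 2 genes and the 3 lower ones for 3 genes. Of the 18 above the control spots 10 were called, beside 11.0% of all such clones. Mbp, the myelin basic protein, had 4 called clones at 1.10, 1.08, 0.82 and 0.64. The second of these lay between 0.87 and 1.45 on all arrays and was its brightest. Another Mbp clone, also above the control spots on every array, lay between -1.16 and 0.09 with a mean of -0.52 and missed the threshold (limma adjusted p = 0.077). On the other side were the myelin enzyme Cnp at -1.05, Mobp at -0.89 and gelsolin (Gsn) at -0.88, so myelin genes did not move one way. Of 3 Cnp clones and 6 Mobp clones 1 each was called, and a Mobp clone above the control spots on all arrays stood at -0.00. In the stressed pools 9 of the 10 called myelin clones had the opposite sign. In bulk tissue more cells of a type and more RNA per cell cannot be told apart.

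The other cell type lists stand beside 5.35% of all clones with a symbol and 3.62% of all clones. The former share counts 189 clones named after the fit, which entered no list. Neuron markers had 1 clone higher and 1 lower among 39 (5.13%), Nsg2 at 0.69 and Nefh at -0.84. Of 18 microglia clones 0 were called by limma and 2 had an unadjusted p under 0.05, beside 3517 of all 22824 clones. Blood cell markers had 2 of 12 called (16.7%, the share of the astrocyte list), clones of the beta globin Hbb-b1 at 1.05 and 0.77, while its other, brightest clone stood at 0.14. The list for the thalamus, which lies next to the PVN, had 2 clones on each side among 25. This share, 16%, was near the 16.7% of the astrocyte list. With 1 array left out 2 to 5 thalamus clones were called. The list for the cortex, hippocampus and striatum had 1 of 34 called (2.94%). Of the markers of other hypothalamic nuclei 0 of 11 were called by limma, and 0 had an unadjusted p under 0.05. The part of tissue composition in the ratios of other genes was not tested.

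The cytosolic ribosome makes the proteins of the cell, and its called clones lay on one side with 1 exception. Of 112 clones of 80 ribosomal protein genes 16 were higher and 1 was lower (15.2%), and 16 of the 83 above the control spots were called (19.3%), beside 11.0% of all such clones. The median was 0.16. The 15.2%, and the shares of the lists below, stand beside 5.35% of all clones with a symbol and 3.62% of all clones. After Rpl21 came Rpl34 at 0.92, the laminin receptor Rpsa with clones at 0.88 and 0.76, Rpl4 at 0.85 and Rps3a1 at 0.83, and the lower clone was 1 of Rpl15 at -0.60, with 2 others at 0.40 and 0.20 that were not called. With 1 array left out 11 to 16 were called. In the stressed pools 14 of the 17 had the opposite sign. Many ribosomal protein genes have near-identical pseudogenes, and cDNA spots can bind RNA of either. Translation factors gave 3 higher and 1 lower of 91, with Eif4b at 0.94, the kinase Eif2ak1 at 0.84, the elongation factor Eef1a1 at 0.55 and the release factor Gspt1 at -0.80. The Eif2ak1 clone was above the control spots on 2 of 10 arrays. Splicing and hnRNP proteins had 3 higher and 4 lower of 152 (4.61%), with Hnrnpa2b1 at 0.86 and Hnrnph2 at 0.84 against U2af2 at -0.74 and Hnrnpm at -0.65. The Hnrnpm clone was above the control spots on no array. Among 166 chromatin clones 5 were higher and 7 lower (7.23%). Of the heterochromatin proteins Cbx3 stood at 0.88, while Cbx5 had called clones at -0.76 and -0.69. The brightest Cbx5 clone at -0.34 and a dim one at 0.10 were not called. The remodeller Chd4 stood at -0.80, with a mean of -0.10 with DBA/2J in Cy5 and -1.49 with DBA/2J in Cy3. The HMG protein Hmgb3 stood at -0.78. The histone chaperone Set had called clones at 0.89 and 0.61 and 4 that were not called at -0.02, -0.21, -0.28 and -0.35, its brightest among them.

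**Figure D5:**
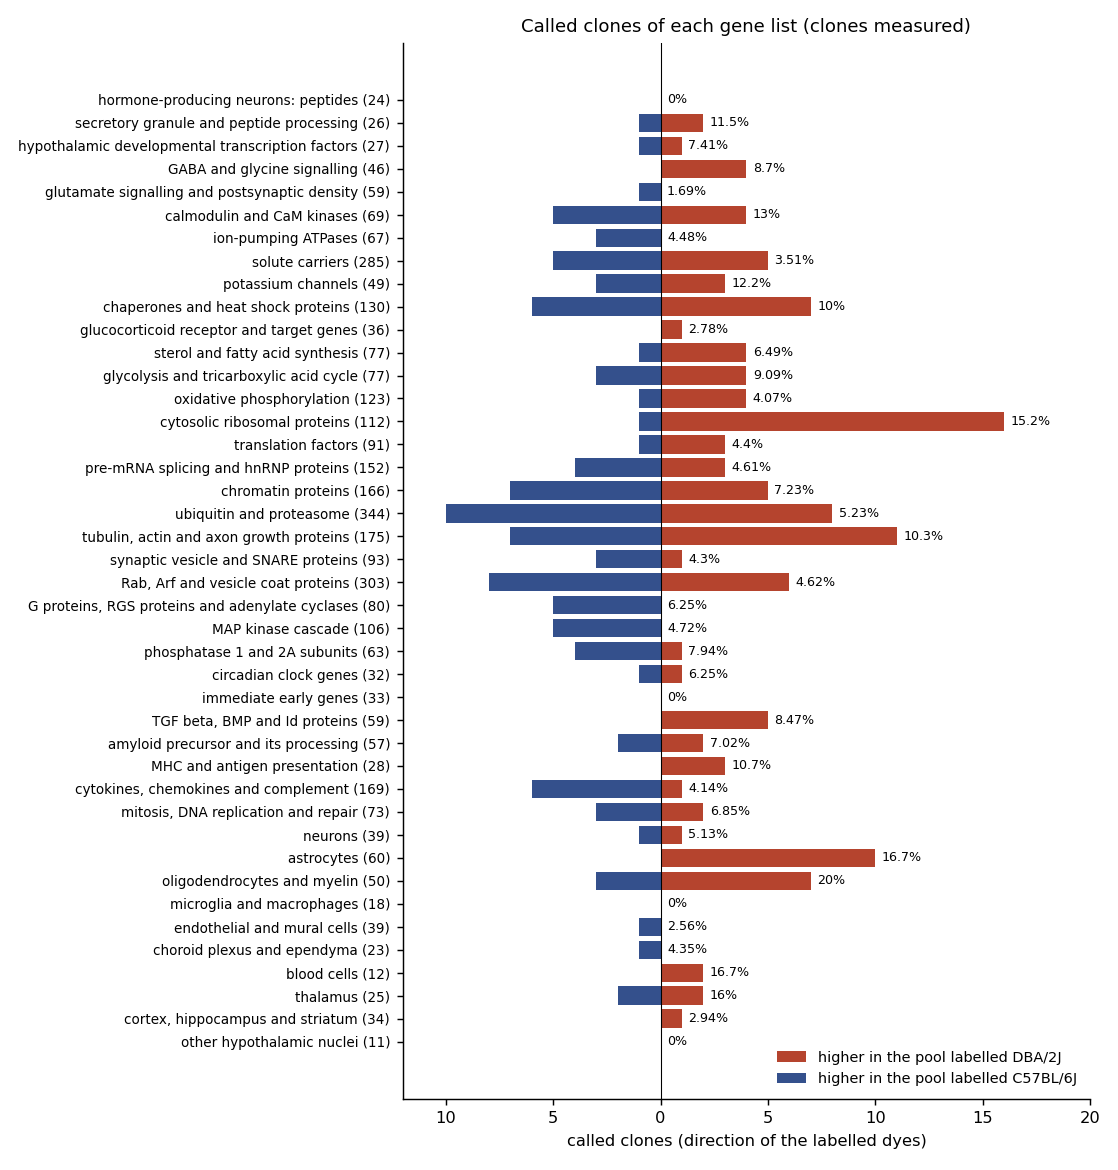
Called clones of each gene list that were higher in the pool labelled DBA/2J (red, right) or C57BL/6J (blue, left), with the number of clones measured in brackets and the percentage called, beside 5.35% of all clones with a symbol and 3.62% of all clones. Ribosomal protein, astrocyte and GABA clones were called on the red side with at most 1 exception, and MAP kinase and G protein clones on the blue side, and the colours change places with the sign turned.

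Energy and lipid metabolism had calls on either side. Of 77 clones for glycolysis and the tricarboxylic acid cycle 4 were higher and 3 lower (9.09%). Enzymes of the same cycle stood apart: the succinyl-CoA ligase subunit Suclg2 at 1.09 and the succinate dehydrogenase subunit Sdhc at 0.77, against Dlst, a subunit of oxoglutarate dehydrogenase, at -0.82. The cytosolic malate dehydrogenase Mdh1 stood at 0.74 and 0.53. Oxidative phosphorylation had 4 higher and 1 lower (4.07%), with the ATP synthase inhibitor Atpif1 at 0.71 and the complex I subunit Ndufv1 at -1.11 (5.10 in the stressed pools). Sterol and fatty acid synthesis had 4 higher and 1 lower of 77 (6.49%), the clones of Insig1, which holds back sterol synthesis, at 0.98 and 0.94, those of the cholesterol carrier Stard4 at 0.78 and 0.61, and Fads1 at -1.60. Solute carriers gave 5 on each side among 285 (3.51%), beside 5.35% of all clones with a symbol and 3.62% of all clones. Among them were the taurine transporter Slc6a6 at -1.04 and the sodium chloride cotransporter Slc12a3 at -0.93. The list of ion-pumping ATPases gave 0 higher and 3 lower of 67 (4.48%). These were the proton pump subunits Atp6v1g2 at -1.15 and Atp6v0a1 at -0.68 and, not an ion pump, the lipid flippase Atp11b at -0.90.

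The cytoskeleton and axon growth list had 11 clones higher and 7 lower of 175 (10.3%). This share and those of the Rab, ubiquitin and chaperone lists stand beside 5.35% of all clones with a symbol and 3.62% of all clones. Map1b, a microtubule protein of growing axons, stood at 1.12 on a clone that was above the control spots on no array, beta actin (Actb) at 0.97, and the heavy neurofilament Nefh at -0.84. All 18 had the opposite sign in the stressed pools. Rab, Arf and vesicle coat proteins had 6 higher and 8 lower of 303 (4.62%), with Arfgef3 at 0.94 and Arl8a at 0.90 against Arfgef1 and the sorting nexin Snx32 at -0.94. The ubiquitin and proteasome list had 8 higher and 10 lower of 344 (5.23%). Its lowest member was Usp46, a deubiquitinating enzyme that has been tied to behaviour under stress in mice, with clones at -1.45 and -0.68 that were negative on every array. Chaperones had 7 higher and 6 lower of 130 (10.0%), with Hspa8 at 0.59 and 0.57 and Dnajc5 at 0.82 against Dnajb2 at -1.09 and -0.54, Dnajc24 at -0.91 and P4hb at -0.70. The Dnajc5 clone was above the control spots on 2 of 10 arrays and the second Dnajb2 clone on 1. With 1 array left out 5 to 8 chaperone clones and 9 to 13 of the cytoskeleton list were called.

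Immune genes were measured in 2 lists. Antigen presentation had 3 higher and 0 lower of 28 (10.7%), the class I gene H2-Q1 at 1.28, the class II gene H2-DMb1 at 0.80 and the beta-2 microglobulin gene B2m at 0.69, and the first 2 of these were above the control spots on no array. The H2 genes are polymorphic between the strains and near-identical to each other, so the gene behind a spot is uncertain. Cytokines, chemokines and complement had 1 higher and 6 lower of 169 (4.14%), beside 5.35% of all clones with a symbol and 3.62% of all clones. Il18 stood at 0.76 against Crp at -0.85, Il1b at -0.81 and Nos2 at -0.73. The list of TGF beta, BMP and Id proteins had 5 higher and 0 lower of 59 (8.47%). These were the transcriptional inhibitor Id2 at 0.88 and 0.71, Smad1 at 0.68, and the metalloproteinase inhibitor Timp2, which the list also held, at 0.68 and 0.65. In the handling of the amyloid precursor protein 4 of 57 clones were called (7.02%). These were the protease Adam10 at 0.75 and 0.59, Bace2 at -0.91 and Rtn3 at -0.79. The Adam10 clone at 0.59 averaged 0.14 with DBA/2J in Cy5 and 1.04 with DBA/2J in Cy3. Adam10 clones at 0.58 and -0.27 were not called. Mitosis, DNA replication and repair had 2 higher and 3 lower of 73 (6.85%), the securin Pttg1 at 1.32, Polm at -0.91, Chtf18 at -0.86 and Smc3 at -0.77.

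Among the genes that respond to stress, the immediate early genes were mostly dim. None of their 33 clones was called by limma, and 2 had an unadjusted p under 0.05, beside 3517 of all 22824 clones. Their median was -0.12, and only 3 of the 33 were above the control spots. Of 36 clones for the glucocorticoid receptor and its targets 14 were above the control spots and 1 was called (2.78%), Plekhf1 at 0.80. The clock genes had Bhlhe41 at 0.84 and Rora at -0.75 among 32 clones (6.25%), with other clones of both genes not called. Of the 32 clock clones 11 were above the control spots, beside 5934 of all 22824 clones. The shares called stand beside 5.35% of all clones with a symbol and 3.62% of all clones.

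Genes known to differ between these strains were looked up in both contrasts. Glo1, which lies in a duplicated segment of the DBA/2J genome, had 5 clones from -0.51 to -0.21, none of them called, and 4 of the 5 were higher in DBA/2J in the stressed pools. The clone of Alad, another gene described as duplicated in DBA/2J, stood at -0.30 and at 0.42 in the stressed pools. Nnt, which is deleted in some C57BL/6J stocks, stood at -0.29 and at 1.08 in the stressed pools, on a clone above the control spots on no array. Of 18 clones of the 10 genes in this list 6 were called, the clones of Camk2n1, Usp46 and Kcnj9, all lower by the labelled dyes and all higher in DBA/2J in the stressed pools. These 3 genes were put on the list with their values in these data known. Of the genes used as references in real-time PCR, Hprt stood at 0.10 and Gapdh at 0.40, 0.09 and -0.01, none called, and Rpl13a was called at 0.69 and stood at -2.06 in the stressed pools.

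Genes that the study picked as examples from these same arrays were also looked up by name, which is not independent of their values. Arfgef3, Mrps18c, Pttg1, H2-Q1, Glul and Spock3 had a called clone with a positive ratio, and Gnao1, Kcnj9 and Usp46 one with a negative ratio. The amyloid precursor gene App had 5 clones from -0.53 to 0.14, Luc7l2 had 4 from -0.14 to 0.12 and Map3k12 had 2 at 0.18 and -0.35, none of them called.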

How the data were processed

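PVN RNA was hybridised to two-colour cDNA arrays. For 24192 spots the authors deposited the Cy3 and Cy5 intensity and its local background, not transformed, and a table of processed values found here to be log2 ratios, which the authors normalized by a procedure described elsewhere. The scale, centring and direction of that table were not stated, but its columns follow the labelled dyes, correlate with the ratios computed here at 0.883 to 0.92 and have medians of 0.000 to 0.009. Dyes were read from the image names in the file headers, since the channel order differed between files.

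The intensities of the 10 arrays were corrected by normexp with an offset of 50 and normalized by global loess within arrays with the 1368 control spots at weight 0. The model (limma 3.58.1, lmFit followed by eBayes, R 4.3.3) held the mean ratio and the dye orientation, and the Benjamini-Hochberg adjustment ran over all 22824 clones. For the stressed pools, single channels were normalized by Aquantile and averaged to 4 pools. The fit was tested on simulated data for the unstressed pools, where 30.30% of clones changed by 0.75, 67.16% changed by 1 and 97.01% changed by 2 on the log2 scale were recovered, with 9 false calls. The number of arrays limits the precision, with a median standard error of 0.19 over all clones. Python 3.11.15 with numpy 2.4.6, pandas 2.3.3 and matplotlib 3.10.9 made the tables and figures.

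Clones were named from the array's own gene names through RefSeq (GRCm38.p6), 10848 of 22824 with a symbol. Names of 189 clones were completed after the fit and entered no gene list. They are among the 10848 clones with a symbol. The 5.35% called among these therefore counts clones named after the fit, which can raise it, and no list holds them. Named are the 12 highest and 12 lowest called clones with the same sign on at least 9 arrays, genes with at least 2 called clones, up to 4 called clones of a function list, strain markers, reference genes, the study's examples and the main peptides. Some genes that this rule names are not reported here. Genes or clones given beside these were chosen after their values were seen. The comparison, the lists and the tests were chosen with earlier results of these data known. Alternatives were other background corrections and normalizations, a filter on dim clones, other dye terms, tests and thresholds, the authors' processed values, parts of the arrays, and the day in the file header as a block. The arrays of the first file day alone were added after seeing the data.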

Additional observations from a re-analysis of the deposited data

Results flagged for a closer look

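Of 279 clones of the named genes, 12 (4.3%) had 1 array far from the other 9 by Dixon's criterion, a share near the 1 in 20 that chance gives, and the cause was not tested. Among called clones the outlying log2 ratios were 0.42 for Gnb2, 1.59 for Hnrnph2, 2.39 for Llph, 1.74 for Pgm2l1, 0.12 for Polm, 1.67 for Rpl21 and 0.34 for Ubxn2a. Those of Gnb2, Polm and Ubxn2a lay on the other side of 0 from the clone's mean, and the others lay farther from 0 than it. Among clones that were not called they were 1.03 for Glo1, -2.13 for Oxt, -1.40 for Prepl, 0.98 for Rab6a and -1.86 for Uhrf1bp1l.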

How the results depend on the processing

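The number of called clones was 895 with print-tip loess, 654 when no background was subtracted, 1125 with median centring, 840 with scaling between arrays, 883 of 5934 with dim clones left out, 664 without the dye term, 825 of 18497 with the authors' processed values and 706 with the methods' t-test after Benjamini-Hochberg. It moved by over 1.5 times with the fold alone (1779), the methods' t-test unadjusted (1535), the file day as a block (442), the first file day alone (45 over 7 arrays), DBA/2J in Cy3 alone (140), DBA/2J in Cy5 alone (35) and the orientations averaged into 2 values (47). Each of the last 4 leaves fewer arrays or values in the fit. Median centring changed the split from 366 higher and 460 lower to 563 and 562. Without 1 array each, 569 to 668 clones were called. All 826 clones kept their sign in every setting that tested all of them except DBA/2J in Cy5 alone (820) and in Cy3 alone (824). Of the 205 called clones named by the rule, 144 stayed called whichever array was left out and 128 with the file day as a block. Signs turned for Basp1 (-0.275), Prrt2 (-0.154) and Slc32a1 (-0.226) with DBA/2J in Cy5 alone and for Dnajb2 (0.119) with DBA/2J in Cy3 alone, each for 1 clone. In the stressed pools 0 clones were called under every alternative run, with 828 to 2301 at an unadjusted p under 0.05. Under the alternatives for the unstressed arrays that tested all clones and called between 569 and 1125, the opposite sign in the stressed pools held for 463 of 569 to 814 of 1125 called clones.

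The ribosomal list had 14 to 22 called clones and a median of 0.15 to 0.20 under the normalizations and without the dye term, the astrocyte list 9 to 11 and 0.12 to 0.17, the myelin list 9 to 11, and the GABA list 2 to 7. With the file day as a block they had 8, 7, 9 and 1. Leaving out 1 array moved the number of called clones by over 1.5 times in 19 of 42 lists, among them potassium channels (3 to 4, from 6), oxidative phosphorylation (2 to 4, from 5), sterol synthesis (3 to 5, from 5), TGF beta (3 to 5, from 5) and clock genes (1 to 2, from 2). No paired analysis was possible because the replicate numbers run from 1 to 10 within 1 comparison and pair no samples.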

Other observations

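Of the clones with a symbol whose gene is placed on a chromosome, 3.13% on chromosome 14 to 6.93% on chromosome 1 were called, beside 5.35% of all clones with a symbol. On chromosome 18, which holds Mbp, 16 called clones were higher and 4 lower by the labelled dyes, and on chromosome 15 there were 8 higher and 20 lower. Several clones of 1 gene count more than once here, and no test was made.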
